A study of Mus musculus with 16 samples.

Results

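A set of 9 genes of the oligodendrocyte lineage was followed in cultured adult neural stem cells that carry or lack Fmr1, the gene for the RNA-binding protein FMRP. The members are Nkx2-2, Olig1, Olig2, Sox8, Sox10, Cspg4, Pdgfra, Bcas1 and Cnp, 9 of the 20409 genes with a symbol in the count table. They were chosen by name with the difference between genotypes already in view, so every genotype difference given for them is a description, without a p-value. The donor animals were FVB/N males aged 8 to 10 weeks, either Fmr1-/y (KO) or their wild-type littermates (WT), and the cells were taken from the dentate gyrus. The culture medium held EGF and FGF2, each at 20 ng/ml. All cultures received cycloheximide at 100 µg/ml for 10 min before lysis, which stalls elongating ribosomes. There were 4 independently isolated cultures per genotype, and each gave a cytoplasmic RNA library and a ribosome footprint (RPF) library from the same lysate, 16 libraries in all. Footprint libraries of replicates 1 and 2 carry molecular identifiers of 5 nt and those of replicates 3 and 4 identifiers of 8 nt. Below, these pairs of cultures are called replicate sets. Whether a culture came from 1 mouse or from several is not given in the sources used here.

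Oligodendrocytes, the myelin-forming cells of the brain, arise from dividing precursors. The basic helix-loop-helix factors OLIG1 and OLIG2 and the SoxE factors SOX8 and SOX10 are expressed early in the lineage, and SOX10 is a defining factor that stays on through myelination. NKX2-2 is a homeodomain factor, induced by Sonic hedgehog in the ventral neural tube, that acts in the transition of precursors to differentiating cells. CSPG4 (NG2) is a surface proteoglycan and PDGFRA the receptor for PDGF-A, and both mark precursors. BCAS1 marks oligodendrocytes that are beginning to form myelin, and CNP is an enzyme of myelin cytoplasm. Olig2 is also expressed by dividing neural progenitors grown with FGF2, and Cspg4 and Pdgfra also occur in pericytes and fibroblasts.

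The sequences around a start of 3 of these genes are shown because Nkx2-2 had the largest fold difference between genotypes, and Cspg4 and Cnp differed together between the replicate sets. Each window runs from 250 bases before to 50 after a start in RefSeq (GRCm38.p6, the assembly of mm10), 5′ to 3′ along the gene. Every CANNTG (E-box, the core bound by basic helix-loop-helix factors) is in capitals. For Nkx2-2 the window lies inside the gene span given below, so this start is not the outermost of the gene. The windows are chr2:147186353-147186652 on the minus strand for Nkx2-2, chr9:56864854-56865153 on the plus strand for Cspg4 and chr11:100574689-100574988 on the plus strand for Cnp.
Nkx2-2: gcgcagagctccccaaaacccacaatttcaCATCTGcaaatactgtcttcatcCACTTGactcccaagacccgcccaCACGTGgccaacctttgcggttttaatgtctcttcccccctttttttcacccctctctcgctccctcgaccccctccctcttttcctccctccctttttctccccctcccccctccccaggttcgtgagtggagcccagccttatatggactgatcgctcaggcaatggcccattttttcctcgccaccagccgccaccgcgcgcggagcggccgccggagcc
Cspg4: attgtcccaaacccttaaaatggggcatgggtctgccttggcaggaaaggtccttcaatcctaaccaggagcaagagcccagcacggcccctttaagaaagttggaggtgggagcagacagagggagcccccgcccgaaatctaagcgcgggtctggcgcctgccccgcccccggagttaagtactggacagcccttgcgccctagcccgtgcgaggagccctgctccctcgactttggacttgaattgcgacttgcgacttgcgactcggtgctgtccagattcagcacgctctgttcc
Cnp: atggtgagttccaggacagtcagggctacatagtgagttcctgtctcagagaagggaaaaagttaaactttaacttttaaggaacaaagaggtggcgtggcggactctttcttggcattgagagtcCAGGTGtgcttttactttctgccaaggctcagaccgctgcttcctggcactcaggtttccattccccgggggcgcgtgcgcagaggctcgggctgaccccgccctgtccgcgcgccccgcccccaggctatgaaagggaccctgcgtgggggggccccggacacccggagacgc
The Nkx2-2 window holds 3 E-boxes, whose first bases lie at -220, -197 and -173 from the start. The Cnp window holds 1, at -124, and the Cspg4 window holds 0. Of 32851 windows of the same length, 72.3% hold at least 1. The NKX2 core TNAAGTG, searched on both strands, occurs once in the Nkx2-2 window at -197, where it overlaps an E-box, and in neither of the other windows; 11.5% of all windows hold it. The SOX core ACAAAG occurs in the Cnp window at -167 and in 18.7% of all windows. A GLI-type sequence GACCACCCA, the target of hedgehog signalling, is in none of the 3 windows and in 0.253% of all. These matches describe the letters of a window and are not binding data. Windows of Olig2, Sox8 and Pdgfra were also matched, which makes 6 of 9 genes.

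Library totals ran from 5343042 to 6600023 counts in RNA and from 9430732 to 17220236 in footprints. Levels within a gene are given as CPM, counts relative to the library total after TMM scaling within an assay. Fmr1 served as the check of the labels: its footprints were 129 to 150 CPM in the WT libraries and 12.7 to 27 in the KO libraries, with no overlap. In RNA, Fmr1 ran from 27.4 to 107 CPM in WT and from 3.35 to 30.9 in KO, so that the ranges overlapped at the WT 4 and KO 2 libraries. Where the text speaks of a pair, it means the WT and KO cultures with the same replicate number. Since the samples are bulk lysates, fewer cells of a type and less RNA per cell cannot be told apart.

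Compared per length, with the authors' TPM rounded to whole numbers, the early factors Olig1 and Olig2 were the most abundant of the 9 genes. The defining factor Sox10 was almost absent. In RNA, mean rounded TPM over 8 libraries was 1162 for Olig1, 741 for Olig2, 245 for Sox8, 156 for Cnp, 48.9 for Nkx2-2, 31.4 for Cspg4, 15.4 for Bcas1, 2.38 for Pdgfra and 0 for Sox10. Olig1 was above Olig2, and Olig2 above Sox8, in 8 of 8 RNA libraries. Sox8 was above Cnp in 7 of 8. Nkx2-2 was above Cspg4 in the 4 WT RNA libraries and below it in the 4 KO ones, so their order depends on the genotype: mean rounded TPM of Nkx2-2 was 89 in WT and 8.75 in KO, and that of Cspg4 39.8 and 23. In footprints the order began in the same way, with 1198 for Olig1 and 463 for Olig2, but Cnp (213) and Sox8 (192) did not separate: Cnp was higher in 3 of 8 libraries.

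The name of the lineage therefore fits these cultures in part. Neural stem cell markers were abundant, with a mean rounded RNA TPM of 2368 for the intermediate filament gene Vim, 407 for Nes and 267 for Sox2. Of 25 further myelin and mature oligodendrocyte genes in the file, 15 had a mean under 1 CPM in WT RNA. Over all 8 RNA libraries, the myelin protein genes Mog, Mag and Mobp had 7, 20 and 8 counts. The most abundant of the myelin list were Sirt2, a deacetylase (156), Tmem98 (122) and Car2, carbonic anhydrase 2 (78.1), by the same rounded TPM. Of 25 further precursor genes, 8 had a mean under 1 CPM in WT RNA, and Gpr17, a receptor of committed precursors, had 48 RNA counts over 8 libraries. The most abundant there were Sox4 (341), the phosphatase gene Ptprz1 (322) and Sox9 (218), which neural stem cells and astrocytes also express.

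Markers of the other cells that could carry Cspg4 or Pdgfra were low. The 12 mural cell and fibroblast markers summed to 2.12 to 11.4 CPM over the 16 libraries, and Pdgfrb, the defining receptor of pericytes, had 1 count in all RNA libraries and 9 in all footprint libraries. Outside culture WT 1, Pdgfra itself was at 0.488 to 10 CPM, so the marker sum was of its order. The part of such cells in the Pdgfra values was not tested. The 10 microglia markers summed to 0 to 1.38 CPM. The 8 endothelial markers summed to 5.52 to 33.5 CPM, and their defining gene Cldn5 had 0 counts in both assays. The 10 astrocyte markers summed to 1632 to 6603 CPM, but unevenly. Most came from Glul, Slc1a3, Aldoc and Sparcl1, with a mean of 926, 874, 564 and 521 CPM in RNA. Aqp4 had a mean of 0.768 CPM in RNA, and Gfap ran from 1.98 to 132 CPM. The 11 neuronal markers summed to 288 to 2092 CPM, but mainly through Map2 (mean rounded RNA TPM 321), Tubb3 (41.5) and Prox1 (36.6). Dcx and Stmn2, markers of young neurons, had 30 and 7 RNA counts and 221 and 303 footprint counts over 8 libraries each. Of 9 neuronal markers tested in footprints, 1 was called higher in replicates 3 and 4 and 1 lower, against 7.56% and 11.5% of all genes. The higher one was Stmn2 (log2 8.06, SE 0.65, adjusted p = 0.00942, edgeR), also called with summed counts, and the lower one Prox1. The 6 ependymal markers summed to 12.8 to 79.1 CPM, mainly Foxj1.

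**Figure D1:**
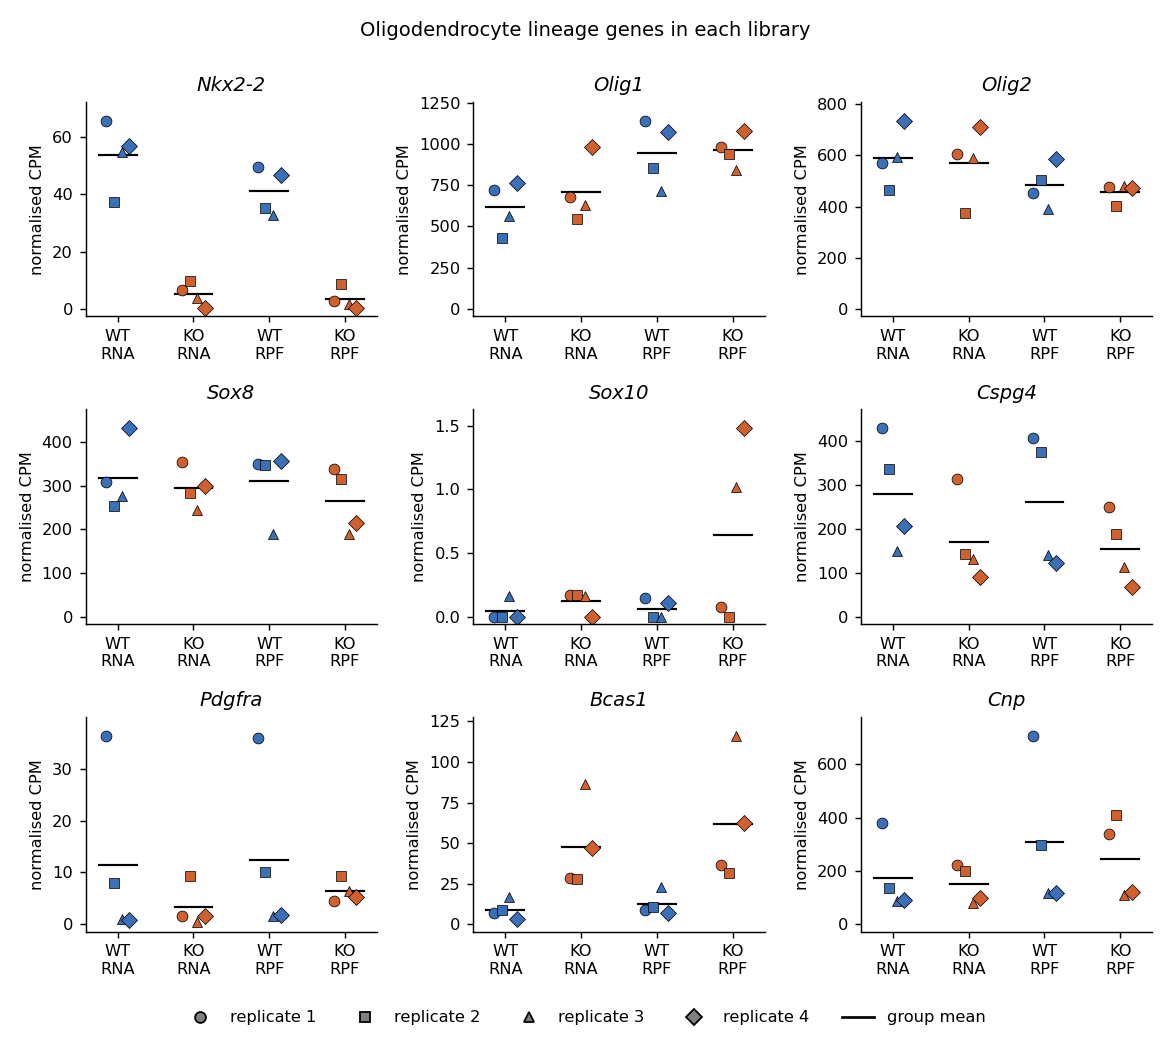
Normalised CPM of each of the 9 genes in every library, with RNA and ribosome footprints (RPF) of WT in blue and KO in orange, 1 symbol per replicate and a bar at the group mean. The 4 KO points of Nkx2-2 lie below all WT points and those of Bcas1 above all WT points in both assays, while Sox10 stays at or under 1.48 CPM.

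Nkx2-2 (chromosome 2, 147176485 to 147195434) was lower in each KO culture than in any WT culture, in RNA and in footprints. Its RNA was at 65.6, 37.4, 54.6 and 56.8 CPM in WT 1 to 4 and at 6.6, 9.63, 3.74 and 0.305 CPM in KO 1 to 4. The highest KO culture was below the lowest WT culture, and KO 4 held only 2 counts, against 363 in WT 4. Footprints were at 49.6, 35.3, 32.7 and 46.6 CPM in WT and at 2.79, 8.62, 1.86 and 0.278 in KO. Footprints thus ordered the KO cultures as RNA did, with KO 2 highest and KO 4 lowest. The fitted log2 fold change of KO over WT was -3.40 (SE 0.70) in RNA and -3.86 (SE 0.66) in footprints. Footprints and RNA come from the same lysates, so the second value is not an independent observation of the first.

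The size of the Nkx2-2 difference varied between cultures. Within pairs 1 to 4 the log2 difference in RNA was -3.25, -1.92, -3.75 and -6.50. In footprints it was -4.08, -2.01, -4.02 and -6.73. It was larger in the second replicate set: -4.79 against -2.67 in RNA and -5.21 against -2.87 in footprints. The difference between sets had a log2 value of -2.12 (SE 1.04) in RNA and -2.32 (SE 1.03) in footprints, with an adjusted p of 1 in both (edgeR quasi-likelihood interaction test), so it did not pass. WT cultures varied little by comparison, with 53.6 ± 11.8 CPM in RNA and 41 ± 8.32 in footprints (mean ± SD, n = 4).

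The 3 abundant early factors showed much smaller differences between genotypes than their spread between cultures. Olig1 RNA (chromosome 16, 91269769 to 91271939) was at 723, 429, 563 and 762 CPM in WT and 679, 548, 632 and 983 in KO. Olig2 RNA (chromosome 16, 91225550 to 91228677), from the neighbouring gene, was at 571, 464, 595 and 736 CPM in WT and 607, 374, 592 and 712 in KO. Sox8 RNA (chromosome 17, 25565893 to 25570686) was at 307, 253, 275 and 431 CPM in WT and 354, 283, 244 and 298 in KO. For all 3 genes the WT and KO ranges overlapped in both assays. The log2 fold changes of KO over WT were 0.20 (SE 0.26), -0.05 (SE 0.24) and -0.10 (SE 0.23) in RNA for Olig1, Olig2 and Sox8. In footprints they were 0.03 (SE 0.18), -0.08 (SE 0.15) and -0.27 (SE 0.20). Culture WT 4 had the highest Olig1, Olig2 and Sox8 RNA of the WT cultures, and culture 2 of each genotype had the lowest Olig1 and Olig2 RNA.

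Sox10 (chromosome 15, 79154913 to 79164490) was close to the limit of detection. Its RNA counts were 0, 0, 1 and 0 in WT and 1, 1, 1 and 0 in KO. Footprint counts were 2, 0, 0 and 1 in WT and 1, 0, 11 and 16 in KO. The KO footprints summed to 28 counts and the WT footprints to 3, a depth-adjusted ratio of 8.29 with a 95% counting interval of 2.56 to 42.6, and 27 of the 28 came from KO 3 and KO 4. At their highest these were 1.48 CPM, and the matching RNA libraries had 1 and 0 counts. In RNA, 3 counts against 1 gave a ratio of 2.92 (counting interval 0.235 to 153), so no difference was detectable there. The intervals cover counting error only. Sox10 was too low to enter any fit.

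Of the precursor surface genes, Cspg4 (chromosome 9, 56865104 to 56899870) was lower in KO in each of 4 pairs and in both assays, although the genotype ranges overlapped. Its RNA was at 428, 335, 150 and 206 CPM in WT and 312, 142, 131 and 89.9 in KO. Its footprints were at 405, 374, 139 and 122 CPM in WT and 249, 187, 112 and 68 in KO. Replicates 1 and 2 lay above replicates 3 and 4 of the same genotype in both assays. The log2 fold change of KO over WT was -0.73 (SE 0.44) in RNA and -0.69 (SE 0.19) in footprints. The RNA value ran from -1.22 without KO 1 to -0.44 without WT 1.

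Pdgfra (chromosome 5, 75151322 to 75198206) was low in all but 1 culture. WT 1 had 36.3 CPM in RNA and 36 in footprints, and the next highest library of either assay was WT 2 footprints at 10 CPM. Its RNA was at 7.99, 0.989 and 0.783 CPM in WT 2 to 4, and in KO 1 to 4 at 1.69, 9.29, 0.488 and 1.52. In footprints WT 2 to 4 had 10, 1.52 and 1.84 CPM, and the KO cultures had 4.4, 9.27, 6.41 and 5.28. The footprint log2 fold change of KO over WT was -0.14 (SE 0.85), and 0.71 without WT 1. It was -1.73 in replicates 1 and 2 and 1.78 in replicates 3 and 4, a difference of 3.54 (SE 0.93) with an adjusted p of 1 (edgeR interaction test). In RNA the gene did not pass the filter on low counts.

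Bcas1 (chromosome 2, 170343973 to 170427911) had the opposite pattern to Nkx2-2. Its RNA was at 7.07, 8.76, 16.7 and 3.13 CPM in WT and 28.3, 27.7, 86.6 and 47.1 in KO. Its footprints were at 8.64, 10.5, 23 and 7.14 CPM in WT and 36.4, 31.9, 116 and 62.2 in KO. Each KO culture was above every WT culture in both assays, and replicate 3 was the highest of its genotype in both. The log2 fold change of KO over WT was 2.41 (SE 0.55) in RNA and 2.20 (SE 0.39) in footprints. Within pairs it was 1.95, 1.63, 2.36 and 3.78 in RNA and 2.05, 1.59, 2.33 and 3.09 in footprints, so pair 4 had the largest difference, as for Nkx2-2.

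Cnp (chromosome 11, 100574909 to 100591875), the other later marker, did not share this pattern. Its RNA was at 379, 137, 85.9 and 91.8 CPM in WT and 222, 199, 80.7 and 99.5 in KO. Its footprints were at 706, 297, 119 and 119 CPM in WT and 339, 411, 108 and 121 in KO. The genotypes overlapped, while every culture of replicates 1 and 2 was above every culture of replicates 3 and 4. The log2 fold change of KO over WT was -0.21 (SE 0.53) in RNA and -0.24 (SE 0.26) in footprints. Without WT 1, the highest library, the RNA value became 0.52 and the footprint value 0.10, so the direction rests on that culture.

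Of the genes tested, Nkx2-2 and Bcas1 were the members whose genotype ranges did not overlap, 2 of 7 in RNA and 2 of 8 in footprints. Over all genes tested, 1.28% in RNA and 1.88% in footprints had no overlap. With edgeR's quasi-likelihood test adjusted over all genes, 0 of 7 members passed in RNA and 0 of 8 in footprints, against 0.00901% and 0.0349% of all genes. At an unadjusted p under 0.05 the counts were 2 and 3 members, against 1.87% and 4.59% of all genes. DESeq2 called 2 members in each assay, against 0.181% and 0.715% of all genes. Nothing is read from these counts, since this contrast chose the genes.

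**Figure D2:**
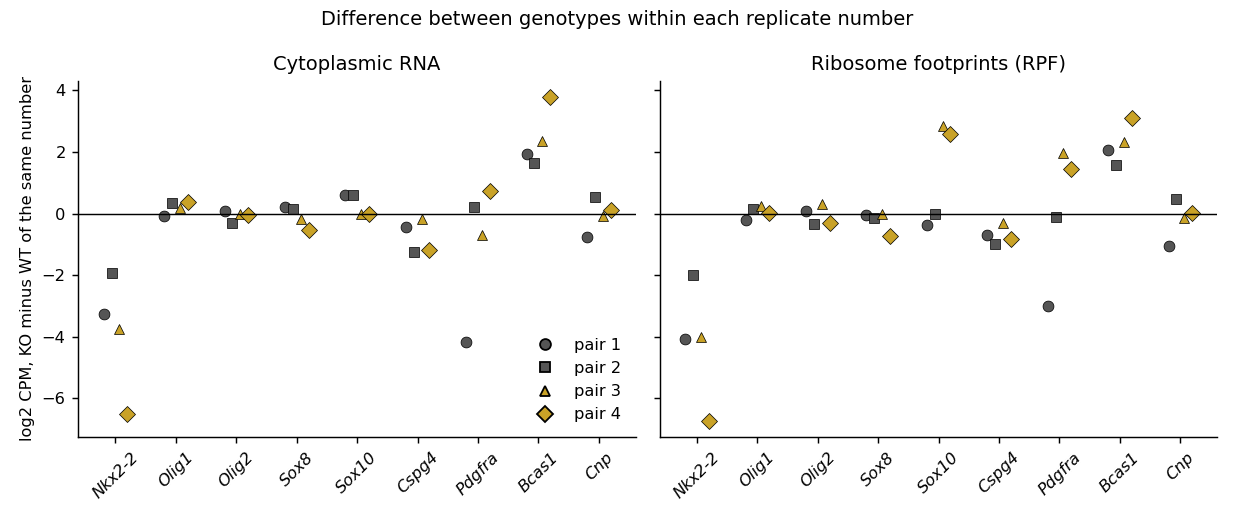
Difference in log2 CPM between the KO and WT cultures of the same replicate number for each gene, RNA on the left and footprints on the right, with 1 symbol per pair. Nkx2-2 is below 0 and Bcas1 above 0 in 4 of 4 pairs in both assays, Cspg4 is below 0 in 4 of 4, and the other genes fall on both sides of 0 in at least 1 assay.

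Set against each other per culture, the early factors were lower relative to the later markers in every KO culture than in any WT culture. The early value is the mean log2 CPM of Olig1, Olig2, Sox8, Sox10 and Nkx2-2, and the later value that of Bcas1 and Cnp. Early minus later in RNA was 0.54, 0.70, 0.99 and 2.26 in WT 1 to 4 and -0.54, -0.60, -0.90 and -1.03 in KO 1 to 4. In footprints it was -0.03, 0.12, -0.10 and 1.40 in WT and -1.46, -1.37, -1.32 and -1.19 in KO. WT 4 stood highest in both assays. Because gene lengths differ, and Sox10 is near 0, the values compare libraries and not the 2 gene groups.

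This balance rested on Nkx2-2 and Bcas1, the 2 genes already described. The KO minus WT difference of its means was -1.89 in RNA and -1.68 in footprints. With Nkx2-2 left out of the early factors it was -1.10 in RNA and -0.79 in footprints. With Cnp as the only later marker it was -0.65 and -0.46, and with Bcas1 alone it was -3.13 and -2.90. No test is given for it, since its genes were chosen with this contrast known. The precursor surface genes had a mean log2 CPM in RNA of 6.97, 5.72, 3.82 and 3.92 in WT and 4.65, 5.21, 3.37 and 3.69 in KO, so that the KO culture of each of the 4 pairs had the lower value. In footprints it was 6.92, 5.95, 3.94 and 3.97 in WT and 5.08, 5.39, 4.77 and 4.27 in KO, lower in pairs 1 and 2 and higher in pairs 3 and 4.

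**Figure D3:**
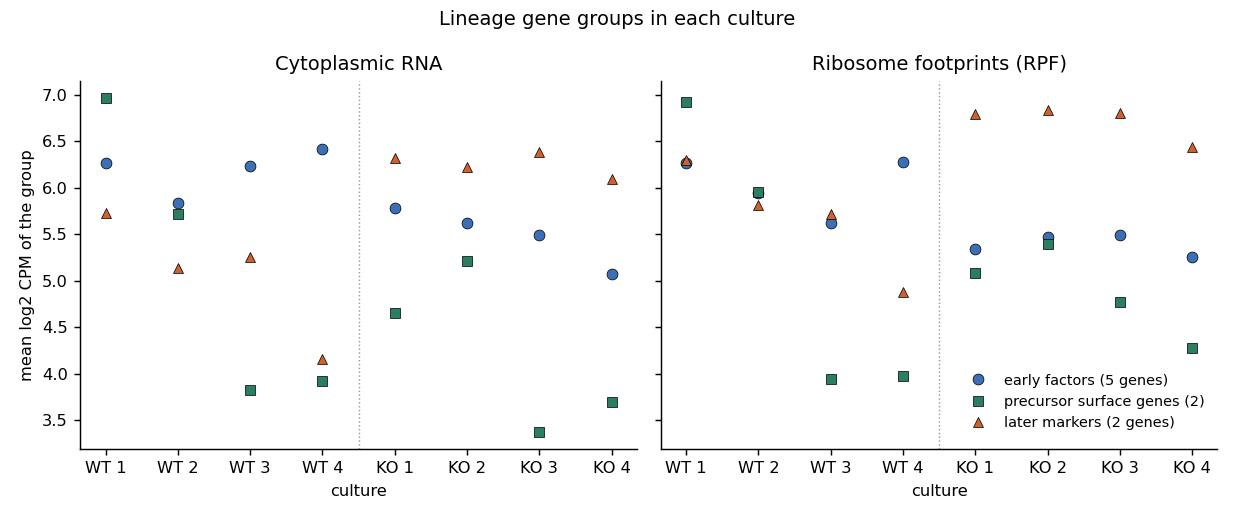
Mean log2 CPM of early factors (circles), precursor surface genes (squares) and later markers (triangles) in each culture, RNA on the left and footprints on the right. In RNA the circles lie above the triangles in the 4 WT cultures (0.54 to 2.26) and below them in the 4 KO cultures (-0.54 to -1.03).

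The contrast between replicate sets was not used to choose the genes and was tested across the whole table. Cspg4 and Cnp were lower in replicates 3 and 4 than in 1 and 2, in both assays. For Cnp the log2 fold change of the later over the earlier set was -1.38 (SE 0.29, adjusted p = 0.0145) in RNA and -1.89 (SE 0.26, adjusted p = 0.0102) in footprints (edgeR). For Cspg4 it was -1.07 (SE 0.26, adjusted p = 0.0231) in RNA and -1.43 (SE 0.19, adjusted p = 0.0101) in footprints. Thus 2 of 7 members in RNA and 2 of 8 in footprints were called lower, against 13.1% and 11.5% of all genes tested. Of all genes, 25.2% in RNA and 19% in footprints were called in either direction, so differences between these sets are common. Higher were 12.1% in RNA and 7.56% in footprints. Of the 7 members tested in RNA the sets did not overlap for Cnp alone, and of the 8 in footprints for Cnp and Cspg4. Over all genes tested, 31.2% in RNA and 31.6% in footprints had no overlap, so this is not frequent among the members. Pdgfra RNA, too low to be tested and outside these shares, ran from 1.69 to 36.3 CPM in replicates 1 and 2 and from 0.488 to 1.52 in 3 and 4. The RNA call for Cspg4 was lost without WT 3 (adjusted p = 0.07), WT 4 (0.0552), KO 1 (0.0511) or KO 4 (0.0642), and that for Cnp without WT 4 (0.0512). In footprints both calls held when any library was left out. These fits take the 8 cultures as independent, whereas same-numbered WT and KO cultures resembled each other, which leaves 2 pairs in each set. With counts summed per replicate number (edgeR), Cnp had an adjusted p of 0.0764 in RNA and 0.047 in footprints, and Cspg4 0.0775 and 0.0549. By this fit 0 of 7 members in RNA and 1 of 8 in footprints were called lower, against 0.288% and 0.601% of all genes. With an estimated correlation within pairs (limma-voom), Cnp had an adjusted p of 0.0377 in RNA and 0.023 in footprints, and Cspg4 0.0553 and 0.023, against 6.43% and 5.47% of all genes called lower. The fold changes stayed between -1.46 and -1.03 for Cspg4 and between -1.92 and -1.29 for Cnp in these fits, so the RNA calls depend on how the pairing enters. The labels name identifier length as the difference between the sets, for footprints only; it cannot be told apart from other differences between these cultures.

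The early factors did not pass in this contrast. In RNA the log2 fold change was 0.30 (SE 0.23, adjusted p = 0.344) for Olig1, 0.39 (SE 0.19, adjusted p = 0.154) for Olig2, 0.05 (SE 0.21, adjusted p = 0.876) for Sox8 and -0.77 (SE 0.60, adjusted p = 0.359) for Nkx2-2. In footprints Sox8 was at -0.52 (SE 0.20, adjusted p = 0.101), and it passed without WT 4 (adjusted p = 0.0385). Bcas1 was at 0.81 (SE 0.47, adjusted p = 0.219) in RNA and 1.04 (SE 0.38, adjusted p = 0.0859) in footprints, the opposite sign to Cnp. Without WT 4 it passed in RNA (adjusted p = 0.0377) and in footprints (adjusted p = 0.039). Pdgfra footprints were at -1.91 (SE 0.84, adjusted p = 0.139). DESeq2 called Pdgfra (adjusted p = 0.0229) and Bcas1 (adjusted p = 0.028) in footprints as well, where it called 29.6% of all genes.

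**Figure D4:**
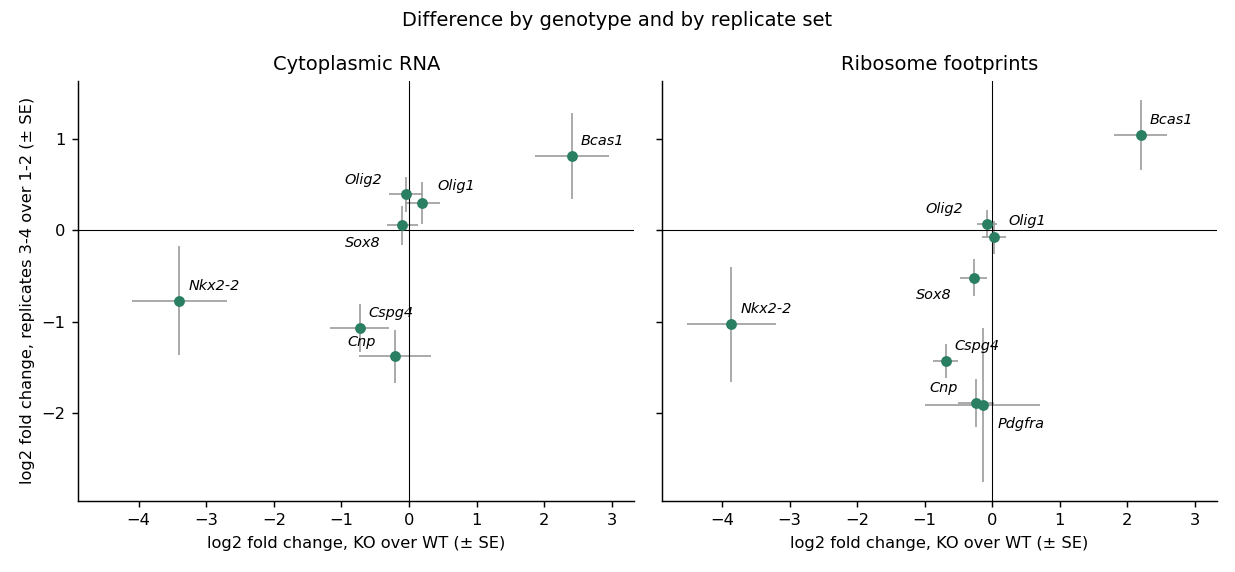
Log2 fold change of KO over WT (horizontal, ± SE) against log2 fold change of replicates 3 and 4 over 1 and 2 (vertical, ± SE) for each fitted gene, RNA on the left and footprints on the right. Nkx2-2 and Bcas1 spread along the horizontal axis and Cnp and Cspg4 along the vertical axis, with Cnp at -1.38 in RNA and -1.89 in footprints.

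Of the wider lists, the other precursor genes, the longest list tested, had the most calls in the fits that take cultures as independent. Of 17 tested, 10 were called lower and 0 higher in RNA, and 9 lower and 1 higher in footprints. Over all genes, 13.1% and 11.5% were called lower. The median log2 fold change of the list was -1.41 and -1.32, against -0.03 and 0 over all genes. With the within-pair correlation, 8 and 7 were lower, against 6.43% and 5.47% of all genes. With counts summed per replicate number 0 were lower in each, against 0.288% and 0.601%. The genes called lower in the first fits included Ptprz1 (-1.97, SE 0.28, in RNA), the extracellular matrix gene Tnr (-3.06, SE 0.53) and the adhesion gene Megf11 (-1.72, SE 0.46). The factors Sox6 (-1.41, SE 0.22) and Sox9 (-1.06, SE 0.27) were also among them. The gene higher in footprints was Prdm8 (0.87, SE 0.23). Of the myelin list, Itpr2, a calcium release channel gene, was lower in RNA (-1.08, SE 0.18) and in footprints (-0.71, SE 0.15), and Sirt2 was lower in footprints (-1.51, SE 0.29). Lower calls were not particular to the precursor list. In the first fits they took in a larger share of the astrocyte markers, 6 of 9 in RNA and 6 of 10 in footprints. With the within-pair correlation 3 and 5 of these were lower, and with summed counts 1 and 2. Among them was Gfap, the astrocyte filament gene (-4.94, SE 0.33, in RNA). Of 11 neural stem cell markers, Sox2, Hes5 and Egfr were lower in both assays (of these, Hes5 also with summed counts), Sox2 with -0.90 (SE 0.16) in RNA. The part of these other cell markers in the values of Cspg4 and Cnp was not tested.

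A list of candidate inhibitors of differentiation, drawn up by name, had calls in both directions. Whether each of its genes, among them Tcf3 and Hdac2, acts as an inhibitor was not tested. Tcf3 was the gene called higher in footprints. Of 15 tested, 2 were higher and 6 lower in RNA of replicates 3 and 4, and 1 higher and 7 lower in footprints. Over all genes the shares were 12.1% higher and 13.1% lower in RNA and 7.56% and 11.5% in footprints, so the number higher is near that of all genes. With the within-pair correlation 0 were higher and 4 and 5 lower, and with summed counts Hes5 alone was lower in each assay. The Notch target Hes5 (-3.62, SE 0.62), the inhibitor genes Id4 (-4.03, SE 0.67) and Id2 (-1.36, SE 0.40) and Sox5 (-1.05, SE 0.20) were lower in RNA, while Id3 (1.11, SE 0.24) and Tcf3 (0.64, SE 0.17) were higher. Sox5 and Sox6 are in this list and in the precursor list, and Hes5 is also a neural stem cell marker. In the hedgehog pathway, which induces Nkx2-2 in the neural tube, the receptor gene Ptch1 was the gene called among 8 tested in RNA (-1.52, SE 0.24) and among 9 in footprints (-1.16, SE 0.21). In the PDGF pathway, the PI3-kinase subunit gene Pik3r1 was lower in RNA (-1.43, SE 0.18), and in footprints the ligand gene Pdgfa was higher (1.45, SE 0.23) and Plcg1 lower (-0.91, SE 0.21), among 8 tested in each. Of 7 factors that pattern the neural tube with Nkx2-2, the corepressor gene Tle1 was lower in RNA (-0.95, SE 0.19). With summed counts, 0 genes of the hedgehog, PDGF and neural tube lists were called in either assay.

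Between genotypes, edgeR called 0 of the precursor, myelin, hedgehog, PDGF and inhibitor genes in RNA or footprints. At an unadjusted p under 0.05 by edgeR, the shares over all genes were 1.87% in RNA and 4.59% in footprints. Of the precursor genes 0 of 17 in RNA and 1 of 17 in footprints had such a p, and of the myelin genes 1 of 10 and 2 of 10. For the hedgehog genes the counts were 0 of 8 and 1 of 9, and for the PDGF genes 0 of 8 in each. For the candidate inhibitors of differentiation they were 0 of 15 and 1 of 15. DESeq2 called 0 genes of these 5 lists in both assays. Among the other lists, it called 1 of 7 neural tube factors and 1 of 9 neuronal markers in footprints. Of the astrocyte markers it called 1 of 9 in RNA and 1 of 10 in footprints. Its shares over all genes were 0.181% in RNA and 0.715% in footprints. With edgeR, 0 genes of these 3 lists were called between genotypes. The median log2 fold change of KO over WT was -0.31 in RNA and -0.21 in footprints for the precursor genes, against 0.01 over all genes in each. Of these 17 genes, 4 had a value above 0 in each assay, and the list was not tested as a set. The hedgehog ligand gene Shh had 26 RNA counts over 8 libraries and the target gene Gli1 had 48.

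Footprints relative to RNA were compared over all cultures, a contrast that also played no part in the choice of the genes. Olig1 had more footprints than RNA, with a log2 value of 0.53 (SE 0.16, adjusted p = 0.00724, edgeR). It was the 1 member of 7 called, and 27.4% of all genes were called higher and 37.3% lower. In the single cultures the Olig1 value ran from 0.14 to 0.99, and it was above 0 in 8 of 8. Within replicates 3 and 4 alone it was 0.32 with an adjusted p of 0.172.

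With each culture as a block, which compares the assays within a lysate, 5 of 7 members passed, 3 higher and 2 lower, against 35.5% of all genes higher and 45.3% lower. Olig1 was at 0.55 (SE 0.09, adjusted p = 0.000114), Cnp at 0.66 (SE 0.10, adjusted p = 8.02e-05) and Bcas1 at 0.42 (SE 0.10, adjusted p = 0.00212). Nkx2-2 was at -0.48 (SE 0.14, adjusted p = 0.00647) and Olig2 at -0.28 (SE 0.09, adjusted p = 0.0151). Nkx2-2 was below 0 in 8 of 8 cultures, from -1.23 to -0.09, and Cnp and Bcas1 were above 0 in 8 of 8. Sox8 and Cspg4 did not pass (adjusted p = 0.373 and 0.193). Thus the neighbours Olig1 and Olig2 lay on opposite sides of 0 in this fit. In the single cultures, Olig2 was above 0 in KO 2 (0.11) and WT 2 (0.12). Without the block Olig2 did not pass (-0.30, SE 0.14, adjusted p = 0.074, edgeR). Values are relative to the scaled total of each assay and do not give ribosomes per mRNA.

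**Figure D5:**
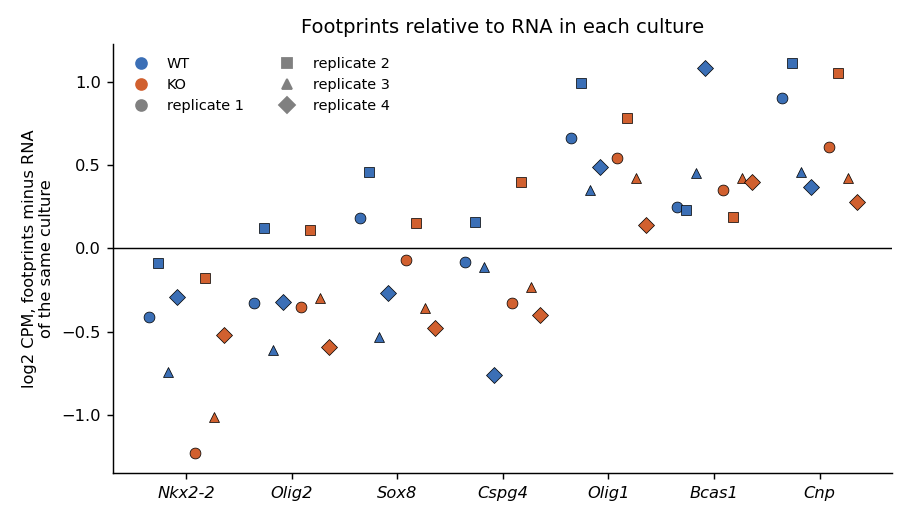
Log2 CPM of footprints minus RNA of the same culture for each member, with WT in blue, KO in orange and 1 symbol per replicate. Olig1, Cnp and Bcas1 are above 0 in 8 of 8 cultures and Nkx2-2 is below 0 in 8 of 8.

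No member passed a test of whether the genotype difference in footprints departed from that in RNA. Translational efficiency, the footprint change not matched by RNA, had a log2 fold change of -0.50 (SE 0.99) for Nkx2-2, -0.20 (SE 0.69) for Bcas1, -0.16 (SE 0.32) for Olig1, -0.02 (SE 0.30) for Olig2 and 0.06 (SE 0.53) for Cspg4. In edgeR's interaction test 0 of 7 members passed, with an adjusted p of 1 for each, and 0% of the 10863 genes did. At an unadjusted p under 0.05 there were 0 members and 14 genes (0.129%), and DESeq2 called 0 genes. With the culture as a block, which compares the assays within a lysate, the values were -0.35 (SE 0.29) for Nkx2-2 and -0.14 (SE 0.19) for Bcas1, and 0 genes were called.

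Hedgehog genes had fewer footprints than RNA as a group. All 8 tested were called lower, with a median log2 value of -1.62 against -0.17 over all genes. The signal transducer gene Smo was at -4.15 (SE 0.19), with 399 CPM in RNA and 22.4 in footprints, and Ptch1 was at -3.36 (SE 0.40), with 379 and 36.8. Of 8 PDGF pathway genes, 5 were lower and the adaptor gene Grb2 was higher. Of 15 genes listed as candidate inhibitors of differentiation, 4 were higher (Id1, Id2, Id3 and Hdac2) and 2 lower. The shares over all genes were 27.4% and 37.3%, so this list shows no excess of calls. Library preparation differs between the assays, and its part in these values was not tested.

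The genes whose pattern was most like that of Nkx2-2 were found among 9431 genes with a mean of at least 5 CPM in both assays, by the lower of 2 Pearson correlations of log2 CPM, over the 8 RNA and the 8 footprint libraries. They were the protocadherin gene Pcdhgb8 (r = 0.95 in RNA and 0.93 in footprints), Fmr1 (0.86 and 0.93), the formin gene Inf2 (0.85 and 0.92), Vim (0.87 and 0.83) and Pstpip2 (0.82 and 0.86). Mean RNA was 18.2 CPM in WT and 4.28 in KO for Pcdhgb8, and 3632 and 2222 for Vim. The points share libraries and depth, and WT and KO form separate groups for Nkx2-2 itself. For Olig2 the closest were Osgep (0.85 and 0.88), Rbm42 (0.82 and 0.86), Znrd1 (0.93 and 0.76), Pqbp1 (0.76 and 0.88) and Dpf2 (0.87 and 0.76). Their WT and KO means were close, with Osgep at 71.1 CPM in RNA in each. Among the members, Cspg4 and Cnp had r = 0.69 in RNA and 0.85 in footprints, and Nkx2-2 and Bcas1 had -0.81 and -0.87. These are descriptions over 8 libraries of each assay.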

How the data were processed

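Cytoplasmic RNA and ribosome footprints were sequenced from 4 WT and 4 KO cultures. The authors deposited gene-level estimated counts (all whole). The score values are TPM that the authors rounded to whole numbers before deposit, per the values in the deposited table. Per the submitters' processing notes, RSEM 1.2.11, TopHat2 2.0.9, Bowtie2 2.1.0 and cutadapt 1.7.1 were used, with build mm10; the notes give no role or order. The handling of identifiers and of strand is not given in the sources used here. Of 20436 rows, 27 with a bare number for a symbol (0.244% to 0.422% of the counts) were left out.

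Counts were tested with edgeR 4.0.16 in R 4.3.3 (TMM, filterByExpr by genotype, quasi-likelihood test, two-sided, Benjamini-Hochberg over all genes, threshold 0.05), after tests on simulated data. RNA was fitted with genotype, footprints with genotype and identifier length, the set contrast in RNA with genotype and set, and footprints against RNA with genotype and assay over 16 libraries. Translational efficiency is the assay by genotype interaction. Log2 CPM used a prior count of 2. Alternatives were DESeq2 1.42.0, limma 3.58.1 on log2 of rounded TPM plus 1, other scalings and filters, the replicate block, each culture left out and, added after seeing the data, each replicate set alone, 2 fits of the set contrast that respect the pairing, and other gene groups for the early and later means.

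The members and lists were chosen with earlier results of these data known. The text names all members, list genes past the threshold in a comparison, up to 3 most abundant genes of a list, the 5 genes most like Nkx2-2 and Olig2, and Fmr1. A result for 1 gene is not reported here. Named outside this rule, for their known roles or after their values were seen, are Mog, Mag, Mobp, Gpr17, Pdgfrb, Cldn5, Dcx, Aqp4, Shh and Gli1. WT and KO carry the same replicate numbers in the sample titles. Deviations from group means correlated between same-numbered libraries at 0.481 to 0.613 in RNA and 0.379 to 0.54 in footprints, so numbers were taken to pair samples. No replicates held identical counts. Replicates are labelled as independently isolated cells.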

Additional observations from a re-analysis of the deposited data

Results flagged for a closer look

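In 5 of 36 groups of 4 libraries, 1 library lay far from the others by Dixon's ratio with a critical value of 0.829, where chance gives about 1 in 20. Olig2 footprints were lowest in KO 2 at 403 CPM, and Sox8 footprints were lowest in WT 3 at 190 CPM. Pdgfra RNA was highest in KO 2 at 9.29 CPM. Sox10 RNA was highest in WT 3 at 0.165 CPM and lowest in KO 4 at 0 CPM, and both rest on 1 count or fewer per library.

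In 2 cases both cultures of a replicate set moved one way between genotypes and both of the other set the opposite way. Pdgfra footprints were lower in KO in replicates 1 and 2 and higher in replicates 3 and 4, a difference of 3.54 on the log2 scale (SE 0.93). Its adjusted p was 1 (edgeR interaction test), and the case was picked out by this change of sign. Within pairs 1 and 2 the log2 differences were -2.99 and -0.11, so the lower value there rests mainly on pair 1. Sox8 RNA was higher in KO in replicates 1 and 2 and lower in 3 and 4, a difference of -0.57 (SE 0.40, adjusted p = 1 by the same test).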

How the results depend on the processing

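Of the values of single members under the alternatives, 564 kept their direction and side of the threshold, 41 changed sign, 16 newly passed and 10 no longer passed; the cause was not tested. The number of genes called between genotypes in RNA was 1, and it was 20 with DESeq2, 2 with limma on TPM and 0 with the replicate block, with a set term or with either replicate set alone (0 to 1 without single cultures, with 1 only without KO 2). In footprints it was 4, and 82 with DESeq2, 0 with the replicate block or replicates 1 and 2 alone, 2 with replicates 3 and 4 alone and 0 to 14 without single cultures (0 without WT 2, WT 3, WT 4, KO 1 or KO 2, and 14 without KO 4). The replicate block changed the call of 4 members in footprints against RNA, given above, and of no member otherwise. A fixed block cannot enter beside the set for the set contrasts, so pairing was respected by summing counts per replicate number or by an estimated within-pair correlation (0.264 in RNA and 0.173 in footprints), both added after seeing the data. The contrasts called 2796 genes in RNA (1091 to 2855 without single cultures, with the lowest counts without WT 4, KO 2, WT 3 and KO 4; 59 with summed counts and 1325 with the within-pair correlation as a replicate block) and 2185 in footprints (3397 with DESeq2, 80 with summed counts and 1017 with the within-pair correlation as a replicate block, 319 to 2222 without single cultures, and over 1.5 times fewer without any one of WT 3, WT 4 and KO 1 to 4). The KO minus WT difference of early minus later was -1.89 in RNA and -1.68 in footprints; it was -1.10 and -0.79 without Nkx2-2, -0.65 and -0.46 with Cnp alone, -3.13 and -2.90 with Bcas1 alone, and ran from -2.08 to -1.51 and from -1.83 to -1.33 without single cultures.

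Pdgfra footprints between genotypes were 0.09 with the replicate block, 0 with limma on TPM and 1.78 in replicates 3 and 4 alone. In replicates 1 and 2 alone, Olig1 footprints were -0.04, efficiency was -0.06 for Cspg4 and 0.04 for Bcas1, and footprints against RNA were 0.20 for Sox8 and 0.02 for Cspg4. Olig2 efficiency was 0.01 with the replicate block. Sox8 RNA between genotypes was 0.17 in replicates 1 and 2 alone and Cnp RNA 0.02 in replicates 3 and 4 alone, and Nkx2-2 RNA between sets was 0.03 with the within-pair correlation. Without single cultures, RNA between genotypes ran from -0.01 to 0.31 for Olig1, -0.18 to 0.11 for Olig2, -0.21 to 0.08 for Sox8 and -0.48 to 0.52 for Cnp, and footprints ran from -0.09 to 0.14 for Olig1, -0.20 to 0.04 for Olig2, -0.71 to 0.71 for Pdgfra and -0.41 to 0.10 for Cnp. Efficiency ran from -0.15 to 0.12 for Olig2, -0.25 to 0.49 for Cspg4 and -0.42 to 0.33 for Cnp. The set contrast ran from -0.16 to 0.17 for Sox8 RNA and, in footprints, from -0.20 to 0.04 for Olig1 and -0.06 to 0.18 for Olig2. Depth limits Sox10 in both assays and Pdgfra in RNA.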
